A study of Mus musculus with 144 samples.

Results

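Kidneys of nmrHAS2 and CreER mice were compared for how their transcripts differed between 6 and 24 months of age. The comparison is the difference in ageing: the change from 6 to 24 months in nmrHAS2 minus the same change in CreER, with both sexes weighted equally. It used all 24 kidney libraries of the 144 in the series, chosen by their tissue label, and it was tested for 18591 of 40946 genes, those that passed a filter on low counts. The 8 kidney groups were females and males of each genotype at 6 months (young) and at 24 months (old), with 3 libraries in each. The nmrHAS2 animals express hyaluronan synthase 2 of the naked mole-rat, a long-lived rodent, and the CreER controls carry the tamoxifen-dependent Cre recombinase. The labels of the controls name CreER alone, and they do not give the tamoxifen treatment, the strain background or the animal behind each library. The study asked how tissues of these mice differ with age. P-values here measure the spread between these libraries, which may be partly technical.

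Hyaluronan is a long polysaccharide of the extracellular matrix that is made at the cell surface by hyaluronan synthases and binds receptors such as CD44 and LYVE1. The kidney is built largely of tubules, and the proximal tubule reabsorbs filtered solutes and secretes organic anions through carriers of the SLC22 family. Resident macrophages lie between the tubules, and immune cells are known to gather in the ageing kidney.

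The transgene was measured first, since it checks the labels. In CPM, counts per 1 M of the library total, its level was 5.122 to 22.67 in the 6 young nmrHAS2 libraries and 13.68 to 24.98 in the 6 old ones. These ranges overlapped only through young male nmrHAS2 replicate 2, at 22.67. The young male replicates 1 and 3 held 5.122 and 5.719, and young females 7.172 to 8.899. The change with age in nmrHAS2 was 0.72 on the log2 scale and did not pass (adjusted p = 0.25, edgeR). The transgene had 0 counts in all 6 young CreER libraries, which allows at most 0.0793 to 0.14 CPM, and in 4 of the 6 old ones. The library labelled old female CreER replicate 3 held 41 transgene counts (0.9001 CPM), and old female CreER replicate 2 held 3. With controls at 0, no difference in ageing is given for the transgene. Mouse Has2 is given as uncertain, because its reads resemble those of the transgene and its level was high only where the transgene was. Totals per library ran from 20.38 to 46.26 M counts.

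Several measures of the libraries moved with the groups. In the 3 young male CreER libraries the median level of the longest 25% of genes minus that of the shortest 25%, each gene relative to its mean over libraries, was -0.2 to -0.157 on the log2 scale. It was 0.066 to 0.1 in the 3 young male nmrHAS2 libraries. The same measure for the 25% most GC-rich genes minus the 25% least GC-rich was 0.462 to 0.618 in young male CreER and 0.184 to 0.221 in young male nmrHAS2. Females of both genotypes overlapped at each age. RNAs without a poly(A) tail took 2.51 to 3.96% of the counts in females and at most 0.000535% in males, so sex and kind of library cannot be told apart. Adrenal gland transcripts summed to 413.4 CPM in young male CreER replicate 1 and to 59.28 CPM in old male nmrHAS2 replicate 2, against at most 6.184 CPM in the other libraries.

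**Figure D1:**
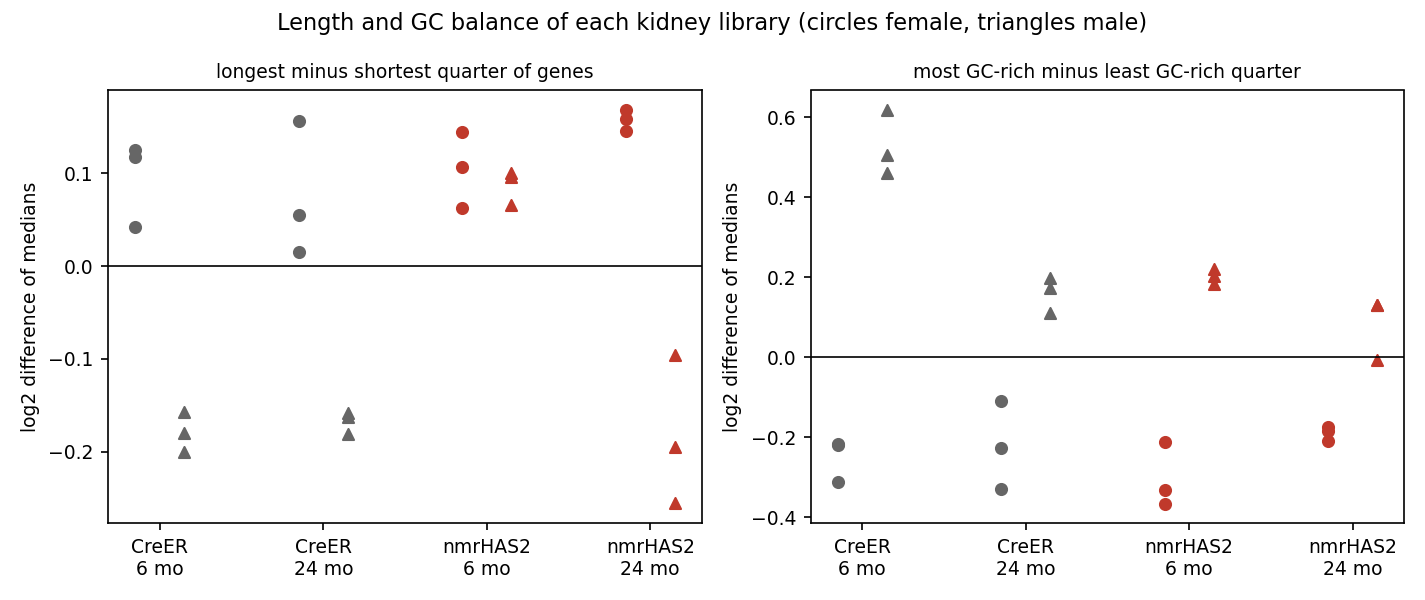
Length balance (left) and GC balance (right) of each kidney library, as the log2 difference between the medians of the highest and the lowest 25% of genes; circles are female and triangles male libraries. Young male CreER libraries sit at -0.2 to -0.157 for length and 0.462 to 0.618 for GC, and young male nmrHAS2 libraries at 0.066 to 0.1 and 0.184 to 0.221.

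Ageing in nmrHAS2 kidneys differed from ageing in CreER kidneys for 437 of the 18591 genes, 2.35% of those tested (edgeR quasi-likelihood test, adjusted p under 0.05). Of these, 290 (1.56%) rose, meaning that the change with age was higher in nmrHAS2, and 147 (0.791%) fell. The balance of directions rested on 1 library: without old male CreER replicate 3, 252 rose and 294 fell. Falls were larger than rises: their median was -0.64 against 0.42 on the log2 scale, and 37 falls but 18 rises were beyond 1 log2 unit. The median difference over all genes was -0.01. The called genes differed in structure: those that rose had a median transcript length of 919 bases and a GC content of 55.25%, those that fell 1809 bases and 45.82%, and all tested genes 1541.5 bases and 49.66%. With length and GC trends removed from each library, 294 genes were called, 209 of them among the 437. Without the 2 libraries with adrenal transcripts 314 were called, 274 of them shared. The part of length, GC and adrenal RNA in the result was not tested further.

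Age itself moved many more genes within each genotype. In CreER, 5622 genes (30.2%) differed between 24 and 6 months, 2749 higher (14.8%) and 2873 lower (15.5%). In nmrHAS2, 4324 (23.3%) did, 2124 higher (11.4%) and 2200 lower (11.8%). These counts do not test a difference between the genotypes, which the 437 genes above do. At 6 months 1202 genes (6.47%) differed between genotypes, 548 (2.95%) higher and 654 (3.52%) lower in nmrHAS2. This count became 248 with length and GC trends removed. At 24 months 327 (1.76%) differed, 231 (1.24%) higher and 96 (0.516%) lower, and 100 differed without the 2 libraries with adrenal transcripts. The difference in ageing equals the genotype difference at 24 months minus that at 6 months, so these comparisons share libraries and their values are given side by side.

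The 12 largest falls ran from -2.17 to -1.15 on the log2 scale. Among them were Adgre1, which encodes the macrophage surface protein F4/80, Mrc1, the mannose receptor CD206, Plek, a signalling protein of blood cells, Cd53 and Cd84, membrane proteins of white blood cells, and Ctss, a lysosomal protease of antigen-presenting cells. Each rose with age in CreER and rose less, or did not pass the test, in nmrHAS2. In bulk tissue, fewer cells of a type and less RNA per cell cannot be told apart.

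Mrc1 had its lowest levels in young males. In CPM scaled by TMM, the 6 young CreER libraries ranged from 2.719 to 15.49 with a median of 8.314, and the 6 old ones from 15.52 to 37.35 with a median of 19.96. The groups did not overlap. In nmrHAS2 the young range was 4.915 to 18.24 with a median of 12.49 and the old range 9.476 to 17.2 with a median of 14.06, and these overlapped. The change with age was 1.74 ± 0.18 (SE) in CreER and 0.35 ± 0.18 in nmrHAS2 on the log2 scale. Their difference was -1.38 ± 0.26 (SE, adjusted p = 0.013, edgeR). It was -0.56 in females (adjusted p = 0.64, edgeR) and -2.21 in males (adjusted p = 0.0040, edgeR). The male minus female value was -1.65 (adjusted p = 0.12, edgeR). All 6 old nmrHAS2 libraries lay below the mean CreER change of their sex. That count is no separate support, because Mrc1 was named for a large fall of the same sign in both sexes. The genotype value was 0.66 at 6 months, with nmrHAS2 higher, and -0.72 at 24 months, with nmrHAS2 lower.

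Adgre1 showed the same order of groups. Its young CreER libraries ranged from 2.876 to 10.82 CPM with a median of 6.057 and its old ones from 8.462 to 29.79 with a median of 16.91. In nmrHAS2 the medians were 9.333 at 6 months (4.29 to 18.32) and 10.34 at 24 months (9.008 to 13.26). Old nmrHAS2 libraries lay in a narrow band inside the range of the young ones. The difference in ageing was -1.43 ± 0.30 (SE, adjusted p = 0.017, edgeR). It was -0.96 in females (adjusted p = 0.44, edgeR) and -1.89 in males (adjusted p = 0.015, edgeR). Adgre1 had a genotype value of 0.79 at 6 months (adjusted p = 0.037, edgeR), with nmrHAS2 higher. At 24 months the genotype value was -0.64 and did not pass (adjusted p = 0.10, edgeR). Old female CreER replicate 2 was the lowest old CreER library, at 8.462 CPM.

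Plek rose in CreER from a median of 4.389 CPM (1.867 to 7.945) to 10.7 CPM (9.082 to 27.5), with no overlap. In nmrHAS2 it was 6.782 CPM (2.846 to 15.9) at 6 months and 7.971 CPM (5.538 to 10.85) at 24 months. The difference was -1.49 ± 0.30 (SE, adjusted p = 0.014, edgeR). Cd53 differed by -1.22, Cd84 by -1.22 and Ctss by -1.15. With length and GC trends removed Cd84 was -1.15 and Ctss -1.11, close to these values, but neither was called (adjusted p of 0.0571 and 0.0558, edgeR). Mrc1, Adgre1 and Plek passed under each of the 31 alternatives run for single genes, libraries left out in turn included. Cd53 kept its call in 25 of the 31, Cd84 in 13 and Ctss in 12.

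**Figure D2:**
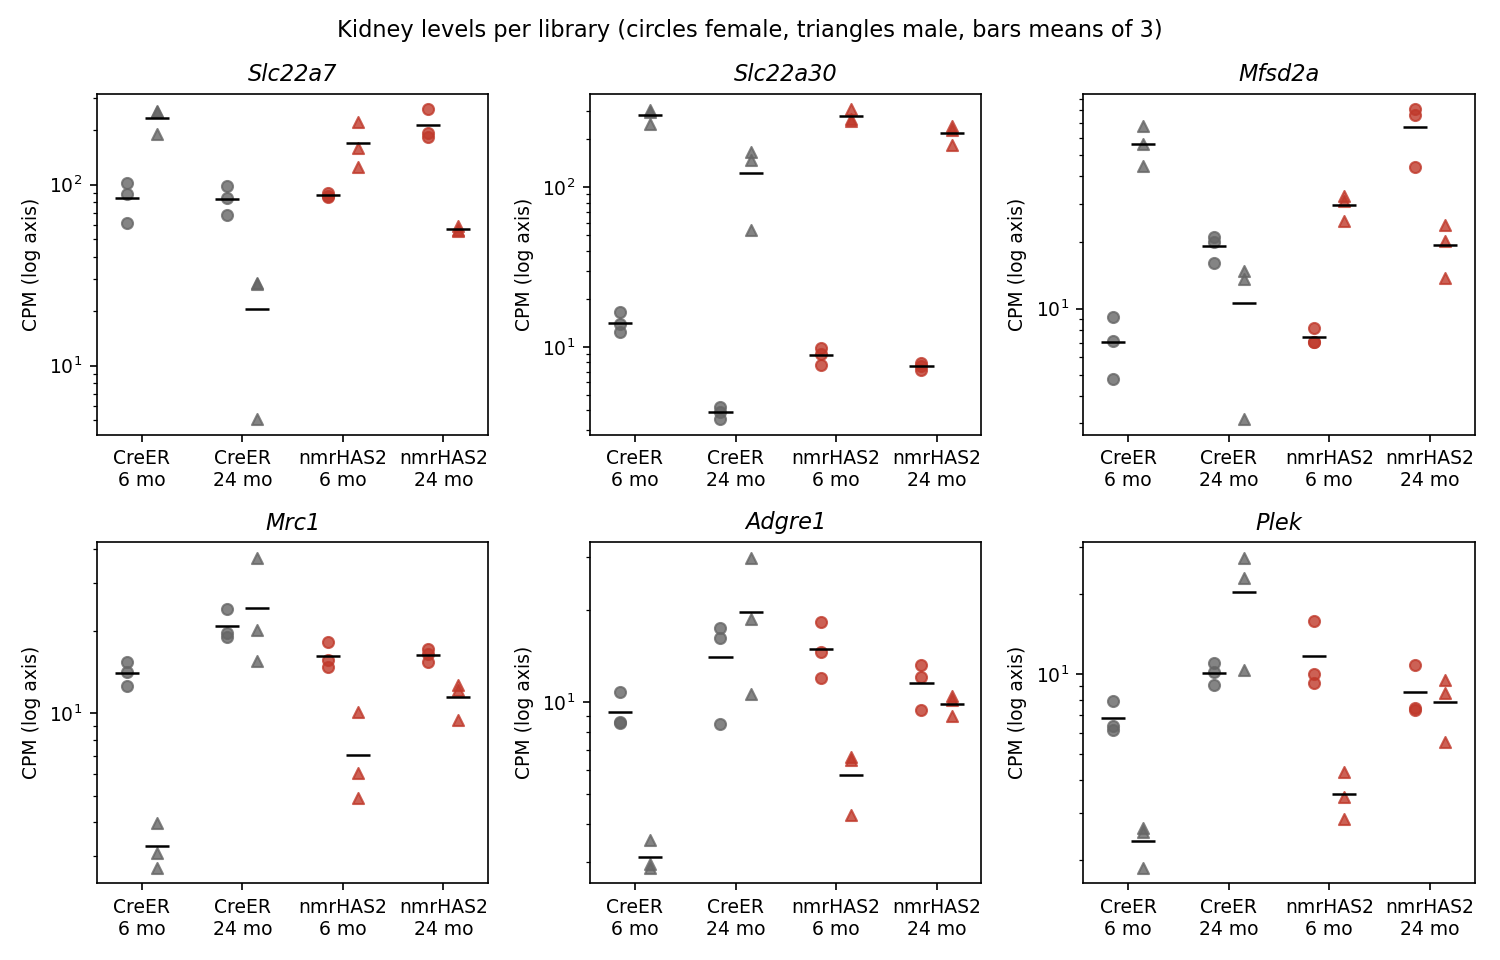
Level in CPM on log axes of 6 genes in each of the 24 kidney libraries, by genotype and age, with circles for females, triangles for males and bars for means of 3 libraries. Mrc1, Adgre1 and Plek have their lowest values in young male CreER libraries, down to 2.719, 2.876 and 1.867 CPM.

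Of 19 macrophage markers tested, 4 fell (Adgre1, Mrc1, C1qc and Trem2), 0 rose and 15 did not pass, against 0.791% of all genes that fell. All 19 values lay below 0 with a median of -0.96, while 51% of all tested genes lay below 0. In females 0 of the 19 fell (median -0.77), beside 0.00538% of all genes, and in males 5 fell (median -1.13), beside 3.24%. C1qc, a chain of complement C1q made by tissue macrophages, differed by -1.10, and Trem2, a lipid receptor of macrophages measured at a mean of 0.862 CPM, by -2.29. Csf1r, the receptor for the macrophage growth factor, had a value of -0.10 and Cd14 of -0.17, neither past the test. In CreER 16 of the 19 rose with age with a median of 1.69, beside 14.8% of all genes. In nmrHAS2 8 rose with a median of 0.60, beside 11.4%. These 2 counts do not test a difference. Between genotypes, 3 of the 19 were higher in nmrHAS2 at 6 months (median 0.43), beside 2.95% of all genes, and 0 were lower. At 24 months 4 were lower (median -0.55), beside 0.516%, and 0 were higher. The summed level was 212.4 to 335.2 CPM in young CreER, 336.3 to 1178 in old CreER, 208.8 to 619.3 in young nmrHAS2 and 380.8 to 535 in old nmrHAS2. Without the 2 libraries with adrenal transcripts 2 of the 19 fell, with a median of -0.94, and with length and GC trends removed 6 fell, with a median of -1.03.

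Lymphocyte genes had values of the same sign, with few past the test. Of 19 markers of T and NK cells 1 fell, beside 0.791% of all genes. It was Cd8b1, a chain of the CD8 co-receptor, which fell by 1.66 log2 units at a mean of 0.9 CPM. The other 18 did not pass, and all 19 lay below 0 with a median of -1.07. Beside the 14.8% and 11.4% of all genes that rose with age, 18 of these 19 did in CreER and 2 in nmrHAS2, which does not test the difference. Cd8b1 was no longer called without the 2 libraries with adrenal transcripts. None of 12 B and plasma cell markers passed, with a median of -1.27 and 10 below 0, and none of 5 neutrophil markers, with a median of -1.16.

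None of 15 antigen presentation genes passed the test of the difference, although all 15 values lay below 0 with a median of -0.80. H2-Aa, a chain of MHC class II, had a value of -0.84 (adjusted p = 0.11, edgeR). In CreER 13 of the 15 rose with age, beside 14.8% of all genes, and in nmrHAS2 2 did, beside 11.4%, and neither count tests the difference. The erythroid markers, which stand for blood in the tissue, had a median of -0.73 with all 10 below 0 and none called. In males their summed level was 5818 to 9853 CPM in old CreER and 1426 to 2161 CPM in old nmrHAS2, which did not overlap. In CreER females it was lower at 24 months (56.91 to 187.3 CPM) than at 6 months (341.9 to 744.8 CPM). The summed macrophage markers of these females were 336.3 to 773.2 CPM at 24 months and 308.8 to 335.2 CPM at 6 months. The library with the highest erythroid sum, old male CreER replicate 3, had the lowest macrophage sum of the old male CreER libraries, at 544.3 CPM. It also stood apart from these in summed proximal tubule enzymes, at 18430 CPM against 38010 and 36210. The part of blood in the values of the immune genes was not tested.

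Of 20 interferon response genes, beside 0.791% of all genes, 2 fell, the chemokine Cxcl9, which draws T cells, by 2.17 log2 units and Gbp2, a guanylate-binding protein of host defence, by 1.62, and the other 18 did not pass. The list median was -0.04, near the median of all genes, with 12 values below 0, 8 above and a range of -2.17 to 0.19. Cxcl9 had 16.49 and 16.34 CPM in 2 of the old male CreER libraries and 3.27 in the third. Removal of length and GC trends left Cxcl9 at -2.11 and Gbp2 at -1.58, close to these values, but neither was called (adjusted p of 0.0558 and 0.0557, edgeR). Of 15 complement and acute phase genes 3 fell, among them Cp, ceruloplasmin, by 0.96, and C1s1, a complement protease, by 0.75. Cp, with length and GC trends removed, was -0.89 and C1s1 -0.76, close to these values, but neither was called (adjusted p of 0.0618 and 0.061, edgeR). At 6 months 3 of the 15 were higher in nmrHAS2 (median 0.43), beside 2.95% of all genes. At 24 months 0 were lower and 1 was higher (median -0.07), beside 0.516% and 1.24%. Cp had a genotype value of 0.61 at 6 months and -0.36 at 24 months, and C1s1 of 0.54 and -0.22. Neither passed at 24 months (adjusted p of 0.26 and 0.42, edgeR).

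Serpina3g, Ms4a6b and Pirb also were among the 12 largest falls, at -1.56, -1.32 and -1.22, but belong to families of similar genes whose reads may be shared and are uncertain. Mmrn1, a protein of lymphatic endothelium and platelets, fell by 1.17. Its genotype value was 0.86 at 6 months (adjusted p = 0.011, edgeR) and -0.31 at 24 months (adjusted p = 0.33, edgeR). Lyve1, the hyaluronan receptor of lymphatic endothelium and some macrophages, had a value of -1.68 (adjusted p = 0.0606, edgeR) and did not pass. None of the 15 hyaluronan genes tested passed, and their median was 0.04. Among 14 endothelial markers 1 fell, Pecam1, by 0.50, beside 0.791% of all genes that fell, with a list median of -0.23. Pecam1 had a genotype value of 0.32 at 6 months (adjusted p = 0.031, edgeR) and -0.18 at 24 months (adjusted p = 0.27, edgeR).

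Promoters of the named genes were searched for 3 short motifs after their values had been seen, so the search is a description. Sequences were the 150 bases before the RefSeq start on GRCm38.p6, read on both strands. GAGGAA, the core of sites bound by the myeloid factor PU.1, was found in 14.5% of 32851 promoters, in 5 of 11 matched genes among the 12 largest falls (Plek, Mrc1, Pirb, Cd53, Mmrn1) and in 0 of 8 among the 12 largest rises. TTCNNNGAA, the form bound by STAT factors, was in 4.09% of promoters, in 1 of the 11 (Serpina3g) and in 1 of the 8 (Slc22a26). TCACNCCAC, a sterol response element, was in 0.639% and in none of either set. A first search of 15 chosen genes, 13 of them matched, held 5 with GAGGAA (Mrc1, Plek, Cd53, Pirb, Trem2), 1 with TTCNNNGAA and 0 with TCACNCCAC. A match is not a bound site. Of the promoters that hold GAGGAA, those of Mrc1, Plek and Cd53 are shown as examples, because their levels are described above, 5′ to 3′ on the gene's strand, with GAGGAA or its reverse complement TTCCTC in capitals, at chr2:14229264-14229413 (plus), chr11:17008719-17008868 (minus) and chr3:106790150-106790299 (minus).
Mrc1: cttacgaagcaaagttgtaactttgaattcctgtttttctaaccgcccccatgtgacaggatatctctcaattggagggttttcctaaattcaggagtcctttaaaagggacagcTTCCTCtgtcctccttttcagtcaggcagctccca
Plek: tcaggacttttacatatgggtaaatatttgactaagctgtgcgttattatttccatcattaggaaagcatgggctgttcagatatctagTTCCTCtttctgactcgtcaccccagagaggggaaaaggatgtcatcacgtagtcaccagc
Cd53: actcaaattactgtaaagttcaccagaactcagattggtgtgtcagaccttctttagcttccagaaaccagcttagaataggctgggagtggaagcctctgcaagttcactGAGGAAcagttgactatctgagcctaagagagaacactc

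The 12 largest rises ran from 1.11 to 1.84 on the log2 scale. In CreER 9 of the 12 fell with age, and Mfsd2a, Acot7 and Vwa1 did not pass. Among the 12 were Slc22a7, Slc22a30 and Slc22a26 of the organic anion carrier family, Slc9a8, a sodium-proton exchanger, Mfsd2a, a carrier of lysophosphatidylcholine with long-chain fatty acids, Odc1, the first enzyme of polyamine synthesis, Ces2b, a carboxylesterase, and Acot7, an acyl-CoA thioesterase. Slc22a30, Slc22a26 and Ces2b have close relatives in clusters and are uncertain. Among the old male CreER libraries, replicate 3 was the lowest for each of the 12 except Slc22a26 and Acot7. Slc9a8 had 33.21 CPM there, against 88.38 and 79.75 in the other libraries of that group. Without replicate 3, 36 of the 42 called genes named stayed called.

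Slc22a7, which encodes the organic anion transporter OAT2, was lowest in old male CreER. The 3 young male CreER libraries had 189.9, 256.4 and 251 CPM and the 3 old ones 28.77, 28.22 and 5.066. In nmrHAS2 males the young libraries had 125.5, 159.3 and 222.5 CPM and the old ones 55.88, 59.33 and 55.56. Male groups of different age did not overlap in either genotype. In females the young and old CreER libraries overlapped, at 61.34 to 101.9 and 68.17 to 98.78 CPM, while old nmrHAS2 libraries had 261.6, 182.9 and 193.4, all above the young ones at 85.36 to 90.45. The difference in ageing was 1.60 ± 0.36 (SE, adjusted p = 0.024, edgeR). It was 1.28 in females (adjusted p = 0.40, edgeR) and 1.91 in males (adjusted p = 0.029, edgeR).

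Mfsd2a moved in opposite directions with age in the sexes, with a like difference between genotypes in both. In females it rose from 4.782 to 9.144 CPM at 6 months to 16.18 to 21.18 at 24 months in CreER, and from 7.068 to 8.149 to 44.33 to 81.14 in nmrHAS2. In males it went from 44.4 to 68.1 CPM to 3.132 to 14.87 in CreER, and from 25.04 to 32.64 to 13.73 to 24.1 in nmrHAS2. No pair of ages overlapped in either sex. The difference was 1.76 ± 0.35 (SE, adjusted p = 0.015, edgeR). It was 1.73 in females, which did not pass alone (adjusted p = 0.23, edgeR), and 1.79 in males (adjusted p = 0.034, edgeR).

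Slc9a8 lay at a median of 182.5 CPM in young and 60.25 CPM in old CreER, with ranges of 104.1 to 277.7 and 29.97 to 88.38 that did not overlap. In nmrHAS2 the medians were 142.3 and 120.4 CPM, with overlapping ranges. The difference was 1.32 ± 0.27 (SE, adjusted p = 0.016, edgeR). Acot7 differed by 1.12, with 1.85 in females and 0.38 in males. Odc1 differed by 1.17 and Rnf24, a ring-finger protein, by 1.51. Vwa1, an extracellular matrix protein, differed by 1.11 and BC049987 by 1.84.

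**Figure D3:**
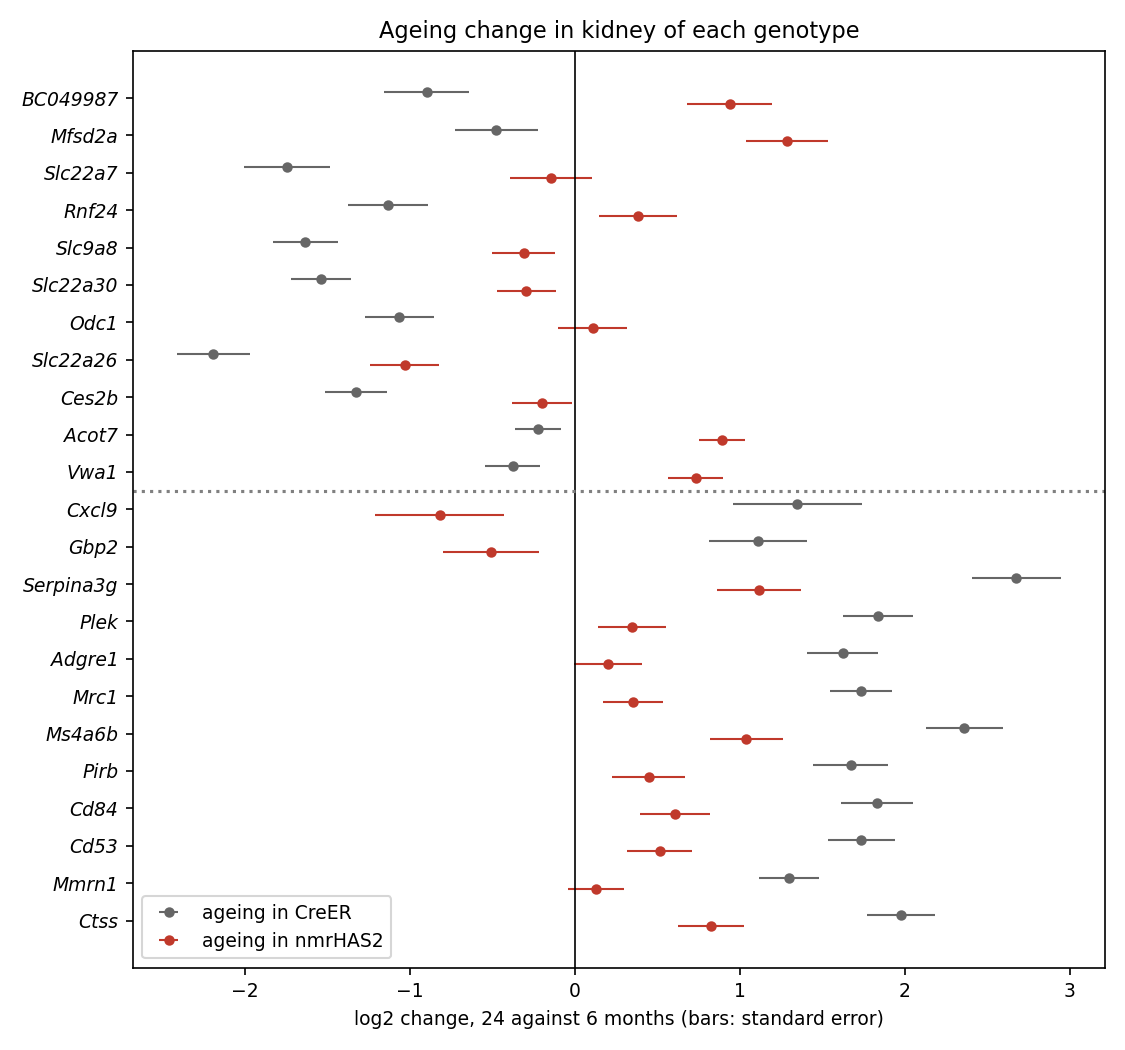
Change from 6 to 24 months in log2 units, with standard errors, in CreER (grey) and nmrHAS2 (red) kidneys for 11 of the 12 largest rises (above the dotted line) and the 12 largest falls. Slc22a7 lies at -1.74 in CreER and -0.15 in nmrHAS2, and Mrc1 at 1.74 and 0.35.

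Of 21 genes of cholesterol synthesis and uptake 2 rose, among them Mvd, mevalonate decarboxylase, by 0.78, none fell and 19 did not pass, beside 1.56% of all genes that rose. The list median was 0.25, with 20 values above 0. In CreER 11 of the 21 fell with age, beside 15.5% of all genes, and in nmrHAS2 3 did, beside 11.8%, which does not test a difference. Mvd had a median of 35.05 CPM (19.34 to 54.06) in young and 16.35 CPM (12.46 to 27.72) in old CreER, and of 27.18 CPM (15.69 to 41.02) and 23.18 CPM (15.71 to 36.1) in nmrHAS2. Within each sex the ages did not overlap in CreER, at 19.34 to 22.63 and 12.46 to 14.92 CPM in females and 47.48 to 54.06 and 17.78 to 27.72 CPM in males. In nmrHAS2 they overlapped within each sex. The difference for Mvd was 0.76 in females (adjusted p = 0.23, edgeR) and 0.79 in males (adjusted p = 0.038, edgeR).

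Of 34 nuclear genes of oxidative phosphorylation 4 rose: Atp5d, Cyc1, Ndufa8 and Uqcrc1, subunits of ATP synthase and of complexes III and I, by 0.30 to 0.34, beside 1.56% of all genes that rose. The median was 0.16, but -0.07 in females and 0.39 in males. At 6 months 13 of the 34 were lower in nmrHAS2 (median -0.19), beside 3.52% of all genes. At 24 months 0 were higher and 0 lower, with a median of -0.02. Atp5d had a genotype value of -0.30 at 6 months and 0.02 at 24 months, Cyc1 of -0.25 and 0.08, and Ndufa8 of -0.25 and 0.05. With length and GC trends removed 1 of the 34 rose, and Atp5d was 0.19, Cyc1 0.19 and Ndufa8 0.22. Of 20 genes of the unfolded protein response 1 rose, Calr, a chaperone of the endoplasmic reticulum, by 0.52, with a list median of 0.40 and 19 values above 0. Calr was 0.49 but not called with length and GC trends removed (adjusted p = 0.061, edgeR).

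The next lists held 1 called gene at most, beside 1.56% of all genes that rose. Of 20 tubule injury genes Clu, clusterin, rose by 0.54, and of 15 NRF2 targets Gstp1, a glutathione transferase, by 0.49. For Gstp1 the genotype value was -0.36 at 6 months and 0.14 at 24 months. Anpep, the brush border aminopeptidase N, rose by 0.77 as 1 of 22 proximal tubule enzymes, while 0 of 26 proximal tubule carriers passed, with a median of 0.12. Anpep differed by 1.15 in females and 0.40 in males. Nudt19, a hydrolase that is higher in male mouse kidney, rose by 0.94 as 1 of 11 such genes. It was 605.4 to 1224 CPM in young male CreER and 476.7 to 554.3 in young male nmrHAS2, which did not overlap. In the old males it was 226.1 to 269.8 in CreER and 375.7 to 454 in nmrHAS2. Nudt19 differed in ageing by 0.26 in females and 1.63 in males. Summed over the 11 genes, old male CreER replicate 3 had 4324 CPM, against 23560 and 21500 in the other old male CreER libraries. Lpl, lipoprotein lipase, rose by 0.98 as 1 of 13 adipocyte markers, of which the other 12 lay below 0. Its difference was 1.78 in females (adjusted p = 0.068, edgeR) and 0.19 in males (adjusted p = 0.81, edgeR). Clu was 0.46 but not called with length and GC trends removed (adjusted p = 0.0675, edgeR).

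Lists of other parts of the nephron and of connective tissue held no called gene. Medians were -0.20 for 11 thick ascending limb markers, -0.25 for 12 distal convoluted and connecting tubule markers, 0.00 for 11 principal cell markers and 12 podocyte markers, -0.24 for 12 intercalated cell markers, -0.15 for 15 fibroblast and pericyte markers and -0.12 for 22 matrix and fibrosis genes. None passed among 23 immediate early genes (median 0.40), 24 genes of fatty acid oxidation (-0.22), 18 clock genes (0.22), 16 heat shock genes (0.19), 26 ribosomal protein genes (0.01), 20 secreted inflammatory factors (-0.38), 20 proliferation genes (0.00) and 15 hypoxia genes (-0.14). Also without a call were 7 urothelium markers (0.44), 5 adrenal markers (8.01, which rests on the libraries named above), 8 RNAs without a poly(A) tail (-0.03) and the 1 pancreatic transcript tested, Cela1 (0.41).

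**Figure D4:**
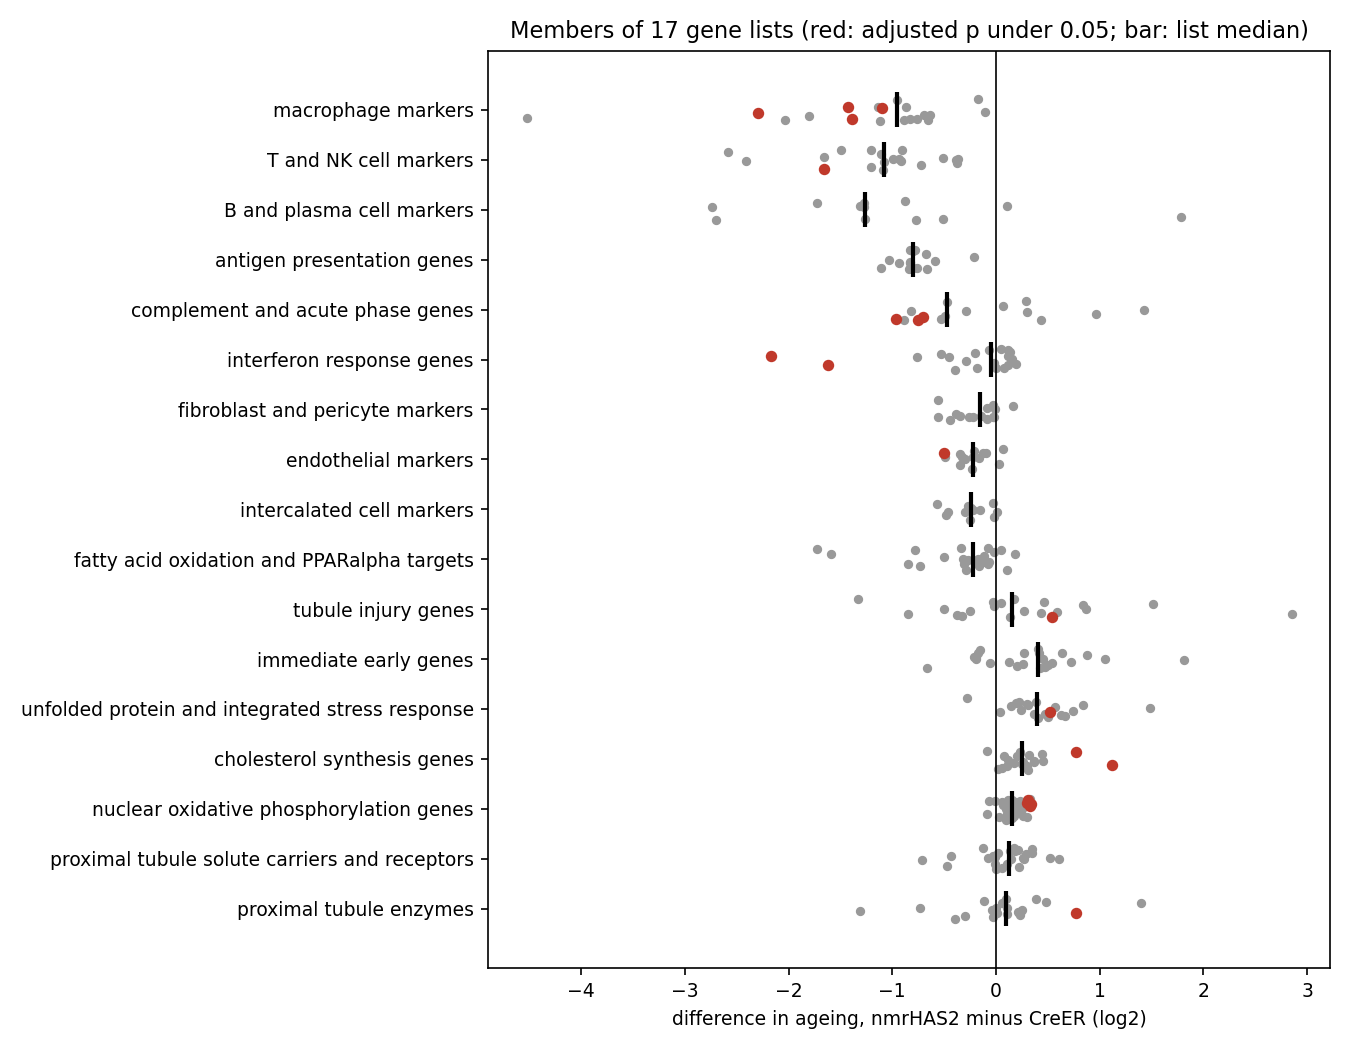
Difference in ageing (nmrHAS2 minus CreER, log2) for each tested member of 17 gene lists, with members past an adjusted p of 0.05 in red and a black bar at each list's median. All 19 macrophage markers lie below 0 with 4 called, and 20 of 21 cholesterol genes lie above 0 with 2 called.

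The sexes were also tested apart. In females 11 genes (0.0592%) passed, 10 higher (0.0538%) and 1 lower (0.00538%). In males 1362 genes (7.33%) passed, 759 higher (4.08%) and 603 lower (3.24%), and with length and GC trends removed 633 higher and 271 lower. These counts do not themselves show that the sexes differ. The difference between the sexes passed for 72 genes (0.387%), 32 higher in males (0.172%) and 40 lower (0.215%). The count was 9 with length and GC trends removed or 6 without the 2 libraries with adrenal transcripts. Of the 437 called genes 423 had the same sign in both sexes, but calling on the mean of both sexes favours such genes. That count is therefore no measure of agreement between the sexes. The value was larger in males for 344 of the 437 (78.7%, beside 63.4% of all tested genes). The smallest p of the pooled test belonged to Scrn2, a member of the secernin family, which differed by 0.60 ± 0.067 (SE, adjusted p = 0.00036, edgeR), with 0.21 in females and 0.99 in males. Its young male CreER libraries had 84.61, 81.2 and 85.15 CPM against 51.69 to 57.67 in young male nmrHAS2 and 39.84 to 44.15 in old male CreER, and these high libraries stood apart in length and GC balance. Scrn2 stayed called with length and GC trends removed, at 0.49 (adjusted p = 0.015, edgeR), and it passed under each of the 31 alternatives.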

How the data were processed

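Total RNA of frozen kidney was sequenced in 24 libraries. Reads were trimmed with Trim Galore 0.6.5 and quantified with Salmon 1.4.0, per the submitters' processing notes, and the authors deposited expected counts for each gene. These were rounded to integers before fitting. Neither build nor annotation is named there (not given in the sources used here).

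All 24 libraries were fitted in edgeR 4.0.16 (R 4.3.3) with 8 group means, TMM scaling, filterByExpr and the quasi-likelihood test. Tests were 2-sided, with Benjamini-Hochberg adjustment over 18591 genes, and calls needed an adjusted p under 0.05. The standard error of a log2 value is its size over the root of F. The limit at a count of 0 is 3 counts and covers counting error only. The fit was tested on simulated data.

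The comparison, gene lists and rule for names were chosen with earlier results of these data known. Named are the 12 largest rises and falls among called genes that average 2 CPM or more and keep their sign in each sex, up to 3 called members of each list or else its 2 smallest p, and the 5 smallest p between sexes. Xist, Tsix, Y-linked genes, pseudogenes, antigen receptor segments and Gm or Rik symbols were not eligible. A few genes under this rule are not reported here. Csf1r, Cd14, Trem2 and Uqcrc1 were added after their values were seen. Gene length and GC came from GENCODE M21 by symbol, and promoters from RefSeq.

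Alternatives were RLE size factors, no filter, DESeq2 1.42.0, limma 3.58.1 with voom and sample weights, a replicate block, 1 sex fitted alone and each library left out. Removal of length and GC trends, and a fit without 2 libraries, were added after seeing the data.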

Additional observations from a re-analysis of the deposited data

Results flagged for a closer look

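The difference in ageing between genotypes itself differed between males and females for 72 genes (edgeR, adjusted p under 0.05), tested as the male value minus the female value. The 5 genes with the smallest p are given here as values. Psd3, an exchange factor for ARF6, had a male minus female value of -1.25 on the log2 scale (adjusted p = 0.0096, edgeR), from 0.16 in females and -1.08 in males. Scrn2 had 0.78 (adjusted p = 0.032, edgeR), from 0.21 and 0.99. Aprt, which salvages adenine, had 0.92 (adjusted p = 0.032, edgeR), from -0.17 and 0.75. Itga1, the collagen-binding integrin alpha 1, had -0.95 (adjusted p = 0.032, edgeR), from 0.31 and -0.63.

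Gabpb1, a subunit of the transcription factor GABP, had -1.66 (adjusted p = 0.032, edgeR), from 1.35 in females and -0.31 in males. Old nmrHAS2 females held 34.22, 25.22 and 25.28 CPM of Gabpb1, above 9.852 to 17.38 in the other female libraries, while all males lay between 9.183 and 11.79. Psd3 was lowest in young male CreER, at 7.65 to 8.249 CPM, against 13.58 to 13.85 in young male nmrHAS2. With length and GC trends removed 9 genes differed between the sexes, 7 of them among the 72. The part of library kind, which follows sex, cannot be told apart.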

How the results depend on the processing

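The count of 437 genes for the difference in ageing was 550 with RLE size factors, 282 without the filter, 1192 with DESeq2 and 928 with voom, and 180 to 670 with 1 library left out. It moved by over 1.5 times without old female CreER replicate 3 (244), old female nmrHAS2 replicate 1 (206), 2 (670) or 3 (246), young female CreER replicate 1 (202) or 2 (180), young female nmrHAS2 replicate 1 (252) or 2 (237), young male CreER replicate 2 (261) and young male nmrHAS2 replicate 2 (280). Without old male CreER replicate 3, 252 rose and 294 fell, against 290 and 147. Among the 24 kidney libraries same-numbered pairs deviated together (r over 0.1) in 11 of 84. Their median r was 0.000987, against 0.00185 for pairs with different numbers. These values gave no sign that the numbers pair the samples but cannot exclude it, and a replicate block gave 336 calls. Of 42 called genes named, 42 stayed called with RLE, DESeq2 and voom, 39 without the filter, 32 with the block, 29 with length and GC trends removed, 21 without the 2 libraries with adrenal transcripts and 17 to 42 with 1 library left out, and none reversed. Calr kept its call in only 8 of the 31 alternatives for single genes, Gbp2 and Pirb in 9 and Lpl in 10. Odc1, Cxcl9, C1s1 and Cd8b1 kept theirs in 11, and Slc22a26 and Ctss in 12.

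The count for genotype at 6 months (1202) became 661 without the filter, 1869 with DESeq2, 2137 with voom and 248 with length and GC trends removed, and 410 to 1613 with 1 library left out. At 24 months 327 became 930 with DESeq2, 1252 with voom and 100 without the 2 libraries with adrenal transcripts, and 29 to 1441 with 1 left out. In females 11 became 20 without the filter, 124 with DESeq2, 409 with voom, 2 with females alone, 6 with length and GC trends removed and 6 without the 2 libraries, and 0 to 62 with 1 left out. In males 1362 became 871 without the filter, 2079 with DESeq2, 236 with males alone, 904 with length and GC trends removed and 712 without the 2 libraries, and 739 to 1604 with 1 left out. Between the sexes 72 became 20 without the filter, 788 with DESeq2, 1106 with voom, 9 with length and GC trends removed and 6 without the 2 libraries, and 1 to 435 with 1 left out, and RLE moved the share that was higher in males from 44.4 to 58.2%. Ageing counts ran from 4785 to 5936 in CreER and 3405 to 4632 in nmrHAS2 with 1 left out. The cause of these moves was not tested, beyond the fewer libraries. Values that reversed were those of the transgene under voom (0.18) and of Has2 without old female CreER replicate 1 (-0.04), old male CreER replicate 3 (-0.03) or young male CreER replicate 2 (-0.94), where the controls are near 0. Over the libraries left out, Has2 ran from -0.94 to 0.94.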
